A study of Mus musculus with 24 samples.

Results

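The diet comparison described here set the liver's response to high dietary selenium against the brain's. For each gene it took the log2 change of 2.25 over 0.1 ppm selenium in liver and subtracted the same change in brain, so that a positive value means that liver changed upward relative to brain. The 12 libraries of these 2 diets were used, 3 for each tissue and diet, out of 24 libraries on 4 diets. A gene entered if it was at 1 normalized read or more in at least 3 of the 6 libraries of each tissue, which kept 16857 of 21894 genes. The animals were male mice of the inbred strain C57BL/6J, and the labels name no engineered allele. They ate normal chow until 8 weeks of age and then a diet supplemented with 2.25, 0.4, 0.1 or 0 ppm selenium for 5 weeks, and RNA was taken from whole liver or whole brain. The labels note no gross pathology and give neither the hour of collection nor the feeding state, and effects of either could not be separated from those of the diet. Replicates are separate samples in the labels, but nothing says whether each came from its own animal, so p-values measure the spread between these samples, which may be technical.

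Selenium is a trace element that cells insert into selenoproteins as the amino acid selenocysteine, and many of these proteins are antioxidant enzymes. Liver takes up dietary selenium, secretes it again as selenoprotein P, and makes lipid, glucose and most plasma proteins from a meal or its absence. Brain holds on to selenium when the supply is short, and it is a tissue of neurons and glia that is largely shielded from swings in blood nutrients. In bulk tissue, fewer cells of a type and less RNA per cell cannot be told apart.

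Liver libraries held 11537706 to 14630608 reads on genes and brain libraries 12939666 to 17832172. Values are normalized reads, that is, reads divided by a single factor per library, and a count of 3 reads came to a value between 4.16 and 5.32 in liver and between 1.75 and 2.33 in brain. Replicates spread more widely in liver than in brain, with a median residual SD of 0.22 and 0.148 on the log2 scale. The tissue labels fitted the markers: Alb, serum albumin, lay between 1142000 and 1493800 normalized reads in liver, and 10 neuronal markers summed there to 180.0 to 319 at 2.25 ppm and 491 to 586 at 0.1 ppm, against 77850 to 81550 in brain. Most of the liver sum was Syt1, a synaptic vesicle protein, at 127.5 to 248.4 at 2.25 ppm and 447.3 to 541.1 at 0.1 ppm. Syt1 fell in liver, -1.39 (adjusted p = 0.00481), and differed between the tissues by -1.34 (adjusted p = 0.0125). The neuronal marker Map2, at 16.8 to 35.5 in liver, differed by 0.62 (adjusted p = 0.0402), but not by edgeR or DESeq2, nor in 11 of the 12 fits without 1 library (adjusted p 0.0528 to 0.0945). Its liver values were higher at 2.25 ppm, and the part of neuronal RNA in the liver results was not tested. Among the 6 brain libraries, brain 0.1 ppm b stood apart. Its 9 pituitary marker genes summed to 53290 normalized reads, against 44.1 to 79.0 in the 3 brain libraries at 2.25 ppm and 150.4 and 595 in brain 0.1 ppm a and c. Without brain 0.1 ppm b, 479 genes differed between the tissues.

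In liver many genes moved with high selenium and in brain few did, and the difference between the tissues was mostly the liver's change. The liver minus brain change passed an adjusted p of 0.05 for 549 of 16857 genes (3.26%), 283 above 0 (1.68%) and 266 below 0 (1.58%). Within liver, 1268 genes passed (7.52%), 688 higher at 2.25 ppm (4.08%) and 580 lower (3.44%). Within brain, 13 genes passed (0.0771%), although 2328 had an unadjusted p under 0.05, against 3741 in liver. Over all genes the median size of change was 0.232 in liver and 0.128 in brain on the log2 scale. Over the 549 genes it was 0.769 in liver and 0.123 in brain, and the liver change was the larger in 480 (87.4%). Of the 549, 422 (76.9%) had also passed within liver, 207 higher and 215 lower, 1 within brain and 126 (23%) in neither tissue. The sign was opposite in the 2 tissues for 377 (68.7%), as a difference of changes favours. The 9 pairwise differences of liver libraries did not overlap the 9 of brain libraries for 543 of the 549, against 1650 of all genes tested (9.79%). The 549 were chosen on the same 12 libraries, which favours such a separation, so it is a description and no separate support.

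Genes that passed in liver tended to lean the same way in brain. Of the 1268, 835 (65.9%) had the same sign in brain, against 56.3% of all genes. Across the 16857 genes, which are not independent replicates, the changes in the 2 tissues had a Pearson correlation of 0.131 and a Spearman correlation of 0.159. By limma 3 genes passed in both tissues, all in the same direction. By edgeR 2 did, also in the same direction, and by DESeq2 61 did, 53 in the same direction and 8 in opposite ones. At an unadjusted p under 0.05 in both tissues the numbers were 589 in the same direction and 138 in opposite ones. On whole reads recovered from the values, edgeR's quasi-likelihood test called 534 genes between the tissues (3.17%), 1321 in liver (7.84%) and 9 in brain (0.0534%), and DESeq2 called 868 (5.15%), 1319 (7.82%) and 207 (1.23%). The count of 549 rested on several libraries: it was 353 without liver 0.1 ppm b, 324 without brain 2.25 ppm b, 311 without brain 0.1 ppm a and 346 without brain 0.1 ppm c. The liver count of 1268 was 686 without liver 2.25 ppm a, 708 without liver 2.25 ppm c and 448 without liver 0.1 ppm b.

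**Figure D1:**
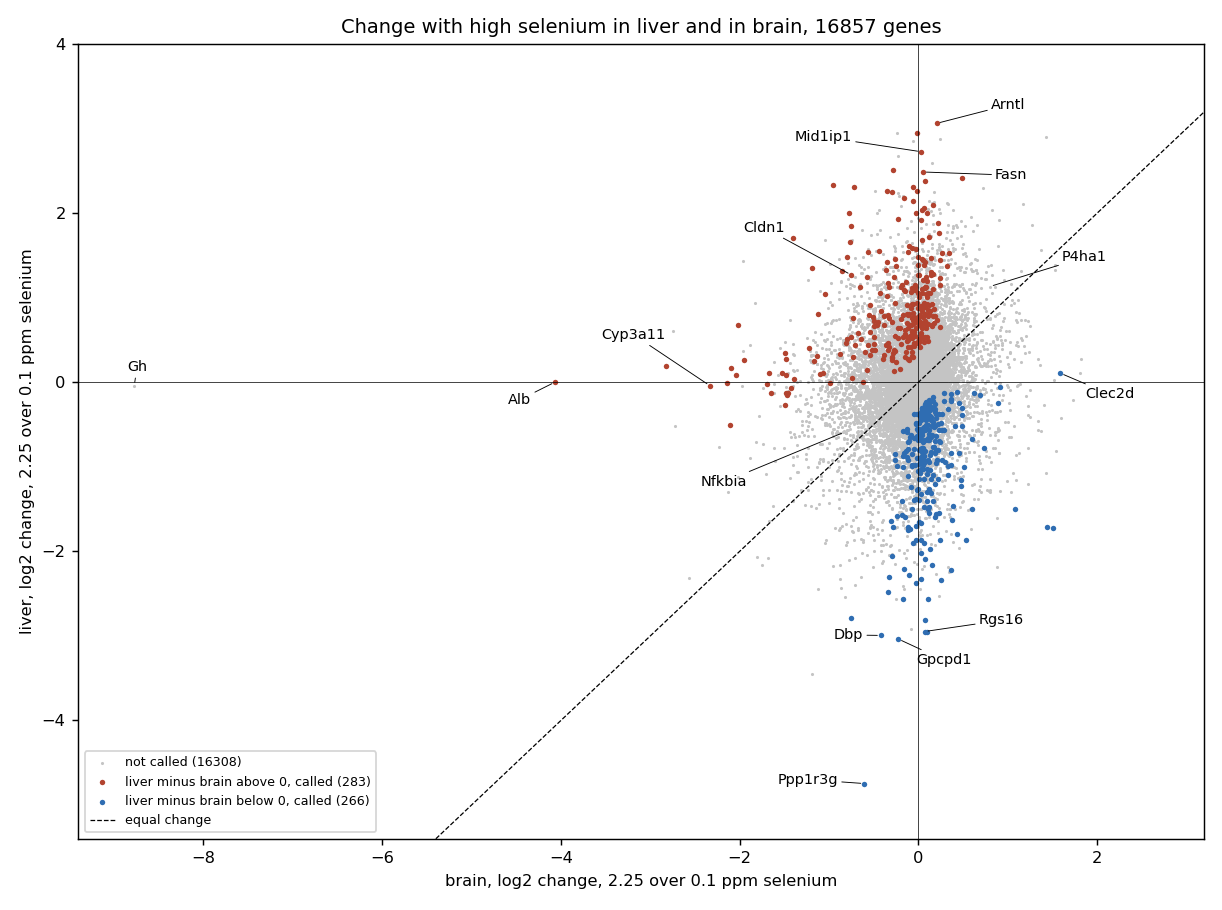
Each point is 1 of 16857 genes, with its log2 change of 2.25 over 0.1 ppm in brain on the x axis and in liver on the y axis; red and blue points are the 283 and 266 genes whose liver minus brain change passed above and below 0. The called genes run mostly along the vertical axis, where the brain value is near 0. Alb and Cyp3a11 lie along the horizontal axis, and Gh, which was not called, is at the far left.

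Several genes of fat synthesis rose in liver at high selenium, while in brain the values of Fasn, Mid1ip1 and Srebf1 lay close together. Hepatic lipogenesis turns acetyl-CoA into fatty acids, and its enzymes are induced by the transcription factors SREBP-1 and ChREBP. Of 22 genes of the fatty acid synthesis list, 6 differed upward and none downward, against 1.68% and 1.58% of all genes tested. The median liver minus brain change was 0.283, against 0.00654 over all genes tested. In liver 9 rose and none fell by limma, against 4.08% and 3.44% of all genes, and by DESeq2 8 rose and 2 fell. In brain none passed by limma or edgeR and 1 by DESeq2, 4 had an unadjusted p under 0.05, and the median change was 0.00658. Fasn, fatty acid synthase (chr11:120805846-120824547, minus strand in mm10), had 20660, 33769 and 28906 normalized reads in liver at 2.25 ppm, against 4432, 5632 and 4590.2 at 0.1 ppm. In brain it had 3444, 3079 and 3089.7 at 2.25 ppm and 3038, 3180.1 and 3063 at 0.1 ppm. Every liver library at 2.25 ppm was above every liver library at 0.1 ppm, and the brain groups overlapped. The liver minus brain change of Fasn was 2.44 ± 0.20 (SE; adjusted p = 3.5e-05).

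Mid1ip1 (chrX:10715013-10719690, plus strand), whose protein helps acetyl-CoA carboxylase to polymerize, had 2519, 2088 and 1563 normalized reads in liver at 2.25 ppm, against 303, 316 and 293 at 0.1 ppm. Brain held 688, 599 and 593 at 2.25 ppm and 688, 616 and 542 at 0.1 ppm, and the liver minus brain change was 2.70 ± 0.20 (SE; adjusted p = 1.88e-05). Srebf1, the gene of SREBP-1 itself, had 10136, 12278 and 8949.5 normalized reads in liver at 2.25 ppm, against 4115, 3401 and 3039 at 0.1 ppm, a separation that brain did not show, with 832, 690.4 and 671 at 2.25 ppm and 750.4, 766 and 705 at 0.1 ppm. Its liver minus brain change was 1.59 ± 0.18 (SE; adjusted p = 0.000385). Smaller differences were measured for Acly, which makes cytosolic acetyl-CoA, at 0.80 ± 0.14 (SE; adjusted p = 0.00649), for Mlxipl, the gene of ChREBP, at 0.83 ± 0.16 (SE; adjusted p = 0.0124), and for Thrsp, a relative of Mid1ip1, at 1.10 ± 0.25 (SE; adjusted p = 0.0314). The call of Thrsp was lost without liver 2.25 ppm a or c, liver 0.1 ppm a, brain 2.25 ppm a or b, or brain 0.1 ppm a or c (adjusted p 0.0539 to 0.0847). Acaca, Elovl6 and Agpat2 were higher in liver, at 0.73 (adjusted p = 0.0231), 0.82 (adjusted p = 0.049) and 0.62 (adjusted p = 0.000784) on the log2 scale, but did not pass between the tissues. Brain Elovl6 was at 908, 845 and 824 at 2.25 ppm and 666, 691 and 691 at 0.1 ppm, without overlap, 0.33 (adjusted p = 0.0755). Brain Thrsp leaned the other way, -0.33 (adjusted p = 0.455). The liver calls were lost without liver 0.1 ppm a, b or c (adjusted p 0.0674 to 0.0923) for Acaca and without liver 2.25 ppm a, b or c or liver 0.1 ppm a or c (adjusted p 0.0615 to 0.152) for Elovl6. Scd1, the stearoyl-CoA desaturase, did not follow: its liver change was -0.25 (adjusted p = 0.482). The list's count was 5 or 6 above 0 in each fit that left out 1 library, and 2 genes below 0 appeared without liver 0.1 ppm a.

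Genes of phospholipid and choline metabolism went in both directions. Chka, choline kinase alpha (chr19:3851773-3894369, plus strand), had 1781, 1437 and 1281 normalized reads in liver at 2.25 ppm, against 235, 292 and 433 at 0.1 ppm, and in brain 1035, 1129.8 and 1279 at 2.25 ppm and 1108, 1089 and 1292 at 0.1 ppm. Its liver minus brain change was 2.28 ± 0.26 (SE; adjusted p = 0.00042). Gpcpd1, which splits glycerophosphocholine (chr2:132529082-132587729, minus strand), went the other way, with 1313, 2517 and 1053 normalized reads in liver at 2.25 ppm, against 12837, 13427 and 11188 at 0.1 ppm. In brain Gpcpd1 was at 1206, 1341 and 1292 at 2.25 ppm and 1563, 1478 and 1449 at 0.1 ppm, slightly lower without overlap, at -0.23 (adjusted p = 0.173). The difference between the tissues was -2.81 ± 0.31 (SE; adjusted p = 0.000385). Mfsd2a, a carrier of lysophosphatidylcholine (chr4:122946850-122961188, minus strand), had 532, 769.9 and 513 normalized reads in liver at 2.25 ppm, against 2901, 3376 and 3025 at 0.1 ppm, and its liver minus brain change was -2.35 ± 0.21 (SE; adjusted p = 6.97e-05). The brain groups of Mfsd2a overlapped. Lpin1 and Lpin2, phosphatidate phosphatases that were looked at after their values were seen, differed by -1.84 ± 0.21 (SE; adjusted p = 0.000469) and -1.45 ± 0.13 (SE; adjusted p = 0.000102). All 3 lipins tested fell in liver, against 3.44% of all genes. Fads3, of the fatty acid desaturase family, differed by -2.05 ± 0.29 (SE; adjusted p = 0.00226).

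**Figure D2:**
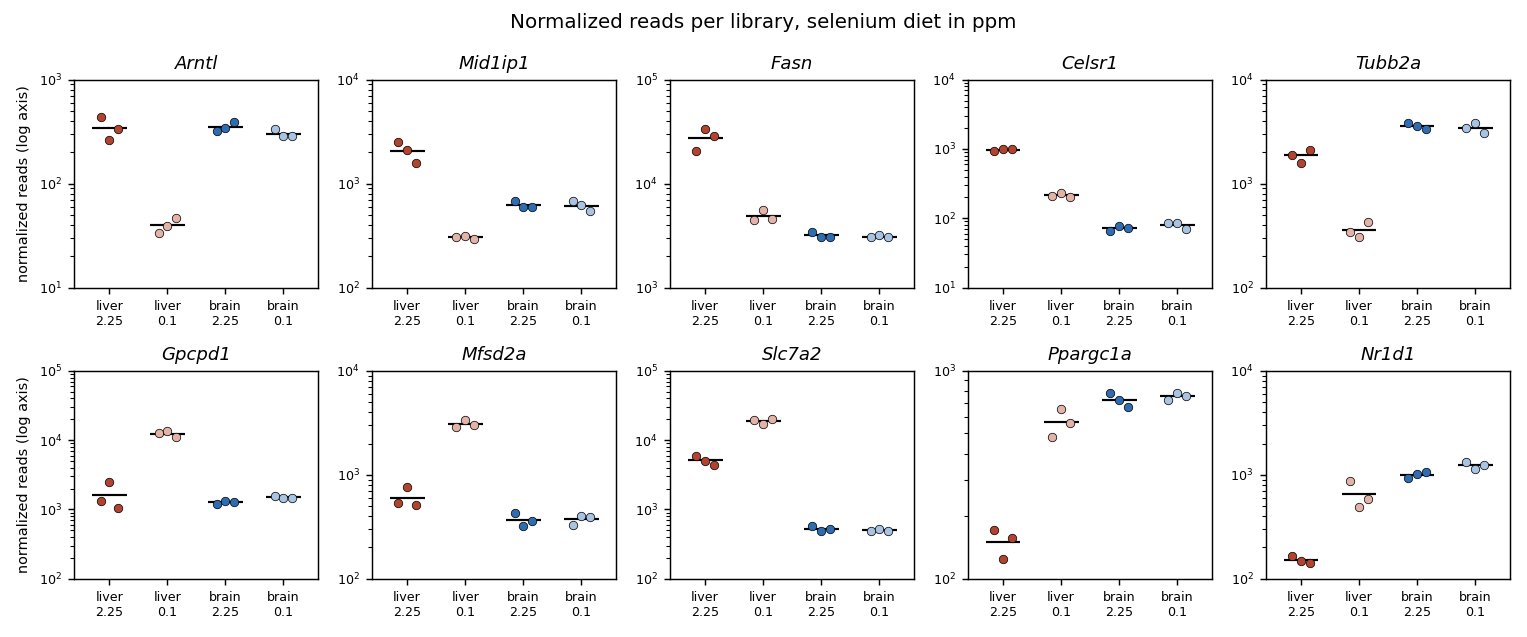
Normalized reads of 10 genes in each library on a log axis, with points for libraries and a bar for the mean of 3, for liver and brain on 2.25 and 0.1 ppm selenium. The liver groups are separate in all 10 genes, with Fasn between 20660 and 33769 at 2.25 ppm against 4432 to 5632 at 0.1 ppm, and the brain groups lie close together.

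Of 20 circadian clock genes 8 differed (40%), the highest share among the 31 lists, against 3.26% of all genes tested. The clock is a loop in which ARNTL (BMAL1) and CLOCK switch on genes with E-boxes, among them the repressors NR1D1 and NR1D2 and the output factor DBP, so that Arntl and Dbp peak at opposite hours. Of the 8 genes, 3 differed upward, Arntl and Clock among them, and 5 downward, Dbp, Ciart, Nr1d1, Nr1d2 and Tef. In liver 6 of the 20 rose and 6 fell, against 4.08% and 3.44% of all genes. The liver counts were 3 higher and 4 lower without liver 0.1 ppm b, 3 higher and 5 lower without liver 2.25 ppm c, and 4 higher and 4 lower without liver 2.25 ppm a. Arntl (chr7:113207465-113314126, plus strand) had 438, 261 and 333 normalized reads in liver at 2.25 ppm, against 33.6, 38.9 and 46.9 at 0.1 ppm. Brain held 319, 342 and 388 at 2.25 ppm and 334, 290.5 and 285 at 0.1 ppm, which overlapped, and the liver minus brain change was 2.86 ± 0.25 (SE; adjusted p = 5.89e-05). Dbp (chr7:45705088-45710203, plus strand) had 101, 216 and 107 normalized reads in liver at 2.25 ppm, against 1363, 1056 and 836 at 0.1 ppm, a fall of all 3 libraries below the other group. In brain Dbp was also lower without overlap, 415, 471 and 439 at 2.25 ppm and 614, 583 and 574 at 0.1 ppm, but its brain change of -0.42 (adjusted p = 0.058) did not pass. The difference between the tissues for Dbp was -2.57 ± 0.33 (SE; adjusted p = 0.00108).

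Nr1d1 had 165, 147 and 141 normalized reads in liver at 2.25 ppm, against 874, 494 and 582 at 0.1 ppm, and Nr1d2 had 1308, 1409 and 1317 normalized reads in liver at 2.25 ppm, against 2771, 2368 and 2066 at 0.1 ppm. The difference between the tissues was -1.76 ± 0.22 (SE; adjusted p = 0.000911) for Nr1d1 and -0.86 ± 0.13 (SE; adjusted p = 0.00293) for Nr1d2. Clock and Tef differed by 0.71 and -0.46, and the call of Tef was lost without brain 2.25 ppm b or c or brain 0.1 ppm a (adjusted p 0.0552 to 0.0672). Per2 leaned upward in both tissues, with 0.80 (adjusted p = 0.0176) in liver and 0.63 (adjusted p = 0.161) in brain, and its difference of 0.17 ± 0.28 (SE; adjusted p = 0.818) did not pass. Its liver call was lost without liver 2.25 ppm b or c or liver 0.1 ppm a or b (adjusted p 0.0521 to 0.0796). Ciart, a clock repressor, differed by -2.04 ± 0.43 (SE; adjusted p = 0.0201), a call that was lost without brain 2.25 ppm b or brain 0.1 ppm a or c (adjusted p 0.0504 to 0.0578). The list's downward count was 3 without brain 2.25 ppm b or brain 0.1 ppm a, against 5 with all libraries. In brain no clock gene passed by limma or edgeR, while 6 had an unadjusted p under 0.05 and 3 passed by DESeq2. The hour of collection in each group is not known, so a shift of clock phase between the liver groups cannot be told apart from an effect of the diet.

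Genes of glucose production and fasting were lower in liver at high selenium. These genes are switched on between meals by glucagon and glucocorticoids and switched off by insulin. Of 19 genes in the list of gluconeogenesis and its regulators, 5 differed downward and none upward, against 1.58% and 1.68% of all genes. The median liver minus brain change was -0.417. In liver 10 fell and 1 rose, against 3.44% and 4.08% of all genes. In brain none of the 19 passed by limma, edgeR or DESeq2, and 5 had an unadjusted p under 0.05. Ppargc1a, the coactivator PGC-1 alpha (chr5:51454250-51567726, minus strand), had 171, 124 and 158 normalized reads in liver at 2.25 ppm, against 479.6, 654 and 562 at 0.1 ppm. Brain held 782, 723 and 673 at 2.25 ppm and 724, 784 and 756 at 0.1 ppm, so that the liver groups were apart and the brain groups were not. The difference was -1.84 ± 0.18 (SE; adjusted p = 0.00012). Foxo1, a transcription factor that insulin keeps out of the nucleus (chr3:52268336-52353221, plus strand), had 812, 791 and 753 normalized reads in liver at 2.25 ppm, against 1534, 1700.4 and 1437 at 0.1 ppm, and differed by -0.91 ± 0.14 (SE; adjusted p = 0.00293).

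Sds, serine dehydratase, which feeds amino acid carbon into glucose, differed by -2.10 ± 0.32 (SE; adjusted p = 0.00351), with 2586, 2489 and 1427 normalized reads in liver at 2.25 ppm, against 6299, 6084 and 5417 at 0.1 ppm. Gpcpd1, described above, is counted in this list although its enzyme acts on glycerophosphocholine and not in glucose synthesis. Got1, aspartate aminotransferase, differed by -1.38 ± 0.31 (SE; adjusted p = 0.0279), and the call was lost without liver 0.1 ppm b or c, brain 2.25 ppm a, b or c, or brain 0.1 ppm a or c (adjusted p 0.0518 to 0.069). Igfbp1, an insulin-repressed secreted protein, had the largest liver change of the list, -3.46 (adjusted p = 0.00824), with 112, 773 and 210.1 normalized reads in liver at 2.25 ppm, against 4968, 3039 and 1620.5 at 0.1 ppm. The liver call was lost without liver 0.1 ppm b (adjusted p 0.0502). Its brain values lay between 0 and 4.81, and its difference did not pass, at -2.27 ± 0.87 (SE; adjusted p = 0.195). Ppp1r3g, which directs a phosphatase to glycogen after a meal, had 4.27, 17.7 and 1.5 normalized reads in liver at 2.25 ppm, against 247, 104 and 182 at 0.1 ppm, where 2 of the 3 libraries at 2.25 ppm were at the level of 3 reads or below. Its liver minus brain change was -4.14 ± 0.78 (SE; adjusted p = 0.0113), the most negative of the genes named. Pfkfb3, which makes the glycolytic activator fructose 2,6-bisphosphate, differed by -2.22 ± 0.41 (SE; adjusted p = 0.0095) and leaned upward in brain, 0.43 (adjusted p = 0.0931). In the list of 29 genes of fatty acid oxidation and PPAR alpha, 8 fell in liver by limma, against 3.44% of all genes. None rose by limma, edgeR or DESeq2. The count was 5 without liver 0.1 ppm b or c. Cpt1a and Bdh1 differed downward, by -0.67 and -0.40, with calls that were lost without liver 2.25 ppm a, liver 0.1 ppm b, brain 2.25 ppm a or c, or brain 0.1 ppm a or c (adjusted p 0.0534 to 0.075) for Cpt1a and without liver 2.25 ppm a or c, liver 0.1 ppm b, brain 2.25 ppm a or b, or brain 0.1 ppm a, b or c (adjusted p 0.0507 to 0.0859) for Bdh1.

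Chaperone genes rose in liver, and brain leaned the same way by less. The unfolded protein response raises the folding and disposal machinery of the endoplasmic reticulum (ER), and the heat shock response does the same for the cytosol. Over all genes, 4.08% rose in liver and 3.44% fell, and 1.68% differed upward between the tissues. Of 27 genes in the ER list, 16 rose in liver and none fell, with a median change of 0.679 in liver and 0.168 in brain. Between the tissues 5 differed upward, Syvn1, Hyou1, Ddit3, Ern1 and Sel1l. Of 21 heat shock chaperones, 14 rose in liver and none fell, with medians of 0.888 in liver and 0.266 in brain. Hsp90aa1 alone differed by limma and edgeR, against 6 genes by DESeq2. In brain no member of either list passed by limma or edgeR, although 12 of each had an unadjusted p under 0.05, and by DESeq2 7 ER genes and 5 heat shock chaperones were higher. The liver count of the ER list was 9 without liver 0.1 ppm b. That of the heat shock list was 4 without liver 0.1 ppm b, 6 without liver 2.25 ppm b, 7 without liver 2.25 ppm c and 9 without liver 0.1 ppm a. Hspa5, the ER chaperone BiP, shows the pattern: it had 28176, 30663 and 50260 normalized reads in liver at 2.25 ppm, against 11642, 12991 and 18332 at 0.1 ppm. Brain held 3092, 2872 and 4219 at 2.25 ppm and 2043, 2296 and 2087 at 0.1 ppm, so that neither pair of groups overlapped. Its change was 1.32 (adjusted p = 0.00651) in liver and 0.65 (adjusted p = 0.0772) in brain, and the difference of 0.68 ± 0.30 (SE; adjusted p = 0.268) did not pass.

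Ern1, the gene of the ER stress sensor IRE1 alpha (chr11:106394650-106487852, minus strand), had 2667, 2145 and 2798 normalized reads in liver at 2.25 ppm, against 1416, 1299 and 1398 at 0.1 ppm. In brain it had 233, 233 and 221 at 2.25 ppm and 205, 264 and 223 at 0.1 ppm, which overlapped, and its difference of 0.88 ± 0.15 (SE; adjusted p = 0.00642) held in each of the 12 fits that left out a library. Syvn1, the ubiquitin ligase HRD1 of ER-associated degradation (chr19:6046576-6053712, plus strand), had 3964, 4715 and 8926 normalized reads in liver at 2.25 ppm, against 1428, 1451 and 2282 at 0.1 ppm, with brain at 667, 623 and 761 at 2.25 ppm and 652, 617 and 609 at 0.1 ppm. Library c of the 2.25 ppm livers was the highest in Syvn1 and in Hspa5. The difference of Syvn1 was 1.59 ± 0.34 (SE; adjusted p = 0.0229), and the call was lost without liver 0.1 ppm a or b, brain 2.25 ppm a or b, or brain 0.1 ppm a or c (adjusted p 0.0503 to 0.0655). Hyou1, an ER chaperone, differed by 1.21 ± 0.28 (SE; adjusted p = 0.0323), lost without liver 0.1 ppm a or b, brain 2.25 ppm a, b or c, or brain 0.1 ppm a, b or c (adjusted p 0.0525 to 0.0833). Sel1l, the partner of Syvn1, differed by 0.81 ± 0.19 (SE; adjusted p = 0.0339), lost without liver 0.1 ppm a or b, brain 2.25 ppm a, b or c, or brain 0.1 ppm a, b or c (adjusted p 0.0534 to 0.0948). Ddit3, the gene of CHOP, differed by 1.11 ± 0.27 (SE; adjusted p = 0.041), lost without liver 2.25 ppm b or c, liver 0.1 ppm a or b, brain 2.25 ppm a, b or c, or brain 0.1 ppm a or c (adjusted p 0.0685 to 0.106). The list of the integrated stress response did not rise as a whole. Of its 21 genes tested, 3 differed upward, Ddit3, Atf4 and Atf5, and none downward, against 1.68% and 1.58% of all genes, and 10 had a negative difference. In liver 3 rose and 1 fell by limma, against 4.08% and 3.44% of all genes, and the median change was -0.275 in liver and -0.044 in brain. Its median liver minus brain change was 0.0224. Atf4 and Atf5 differed by 0.52 ± 0.12 (SE; adjusted p = 0.0362) and 0.66 ± 0.14 (SE; adjusted p = 0.0222). Those calls were lost without liver 2.25 ppm b, liver 0.1 ppm b or c, brain 2.25 ppm a, b or c, or brain 0.1 ppm a, b or c (adjusted p 0.0604 to 0.0886) for Atf4 and without brain 2.25 ppm b or brain 0.1 ppm a or c (adjusted p 0.0534 to 0.0661) for Atf5. The ER list's count was 1 without liver 0.1 ppm a or b, brain 2.25 ppm a or b, or brain 0.1 ppm a or c, it was 2 without brain 2.25 ppm c and 3 without brain 0.1 ppm b, and it was 8 without liver 0.1 ppm c.

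Among heat shock genes, Hsp90aa1, the inducible cytosolic HSP90, had 5700.1, 8186 and 10531 normalized reads in liver at 2.25 ppm, against 2185, 2875 and 3688 at 0.1 ppm. Its brain level was 9765, 9740.1 and 10329 at 2.25 ppm and 8840.5, 10129 and 8209.7 at 0.1 ppm, with overlap. The difference was 1.33 ± 0.28 (SE; adjusted p = 0.0207), lost without liver 0.1 ppm b or brain 2.25 ppm b (adjusted p 0.0504 to 0.0528). Hsph1 and Dnajb1, co-chaperones of HSP70, rose in liver by 1.90 (adjusted p = 0.0186) and 1.45 (adjusted p = 0.00308), and their brain values were 0.48 (adjusted p = 0.078) and 0.66 (adjusted p = 0.0556). Hspa1b, an inducible HSP70, rose by 2.90 (adjusted p = 0.0147) in liver and its brain value was 1.42 (adjusted p = 0.0993) but Hspa1a is a near-identical copy and the split of reads between them is uncertain. The liver calls were lost without liver 2.25 ppm b or c or liver 0.1 ppm b (adjusted p 0.0731 to 0.0827) for Hsph1 and without liver 2.25 ppm b or c or liver 0.1 ppm b (adjusted p 0.054 to 0.0761) for Hspa1b. The heat shock count was 5 without liver 2.25 ppm a, 7 without liver 0.1 ppm c and 0 without liver 0.1 ppm b or brain 2.25 ppm b.

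**Figure D3:**
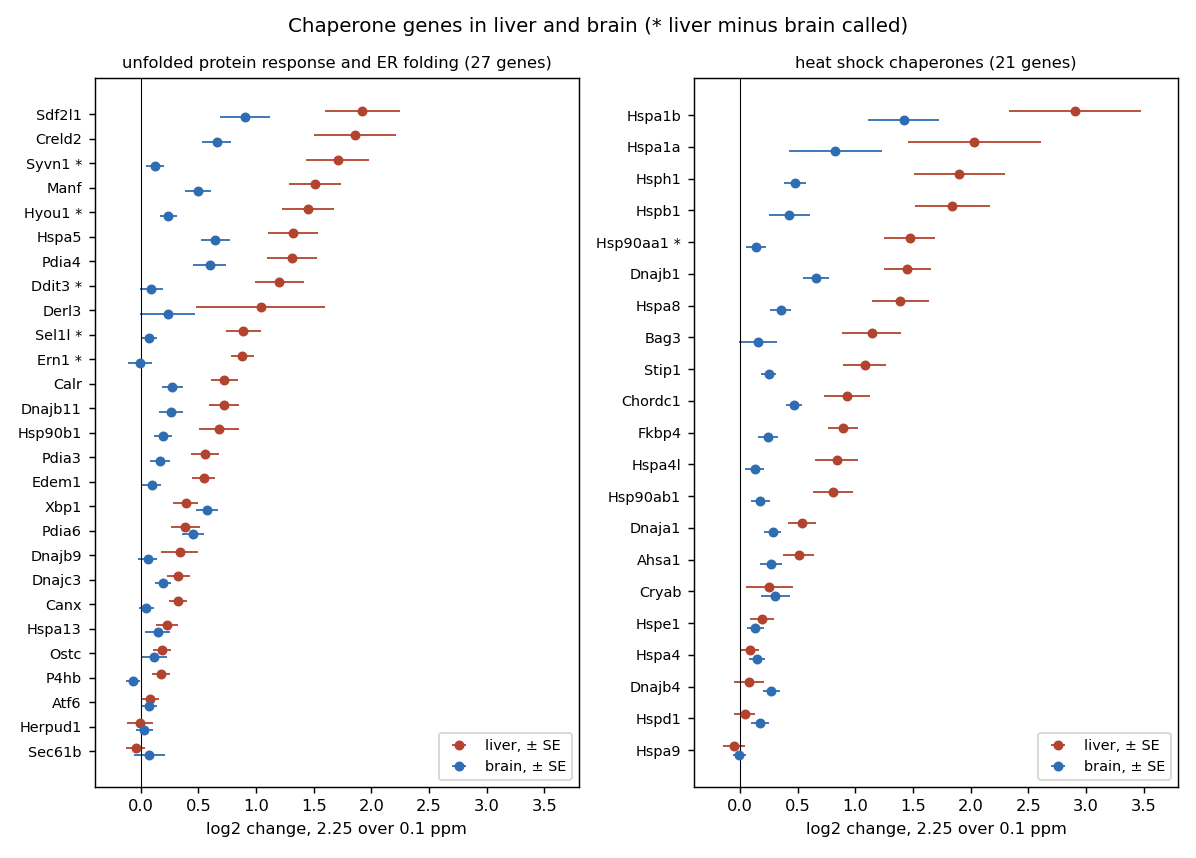
Log2 change of 2.25 over 0.1 ppm with its SE in liver (red) and brain (blue) for the 27 genes of the ER list and the 21 heat shock chaperones, ordered by the liver change. Most genes of both lists lie right of 0 in both tissues with the liver point further out, as for Hspa5 at 1.32 in liver and 0.65 in brain, and an asterisk marks the 6 genes that passed between the tissues.

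Promoter windows from 250 bases before to 50 after the annotated start (RefSeq, GRCm38.p6) were searched on both strands for the genes named from the ER, heat shock, clock and cholesterol lists, which have known response elements. Of the genes searched, Arntl, Dbp, Ern1, Syvn1, Sel1l, Insig1, Mvd, Nr1d1 and Nr1d2 had a window. The Syvn1 window (chr19:6046326-6046625, plus strand) is shown because it held the ER stress element, CCAAT and CCACG separated by 9 bases, which 0.119% of 32851 promoter windows held. Capitals mark its 2 ends.
Syvn1: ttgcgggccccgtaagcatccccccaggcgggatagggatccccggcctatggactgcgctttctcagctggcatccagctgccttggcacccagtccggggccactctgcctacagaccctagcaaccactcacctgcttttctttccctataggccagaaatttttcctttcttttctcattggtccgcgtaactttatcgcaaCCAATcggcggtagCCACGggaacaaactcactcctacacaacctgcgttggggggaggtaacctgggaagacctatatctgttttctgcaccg
The Insig1 window (chr5:28071162-28071461, plus strand) held an E-box, CACGTG, found in 7.15% of windows and marked in capitals.
Insig1: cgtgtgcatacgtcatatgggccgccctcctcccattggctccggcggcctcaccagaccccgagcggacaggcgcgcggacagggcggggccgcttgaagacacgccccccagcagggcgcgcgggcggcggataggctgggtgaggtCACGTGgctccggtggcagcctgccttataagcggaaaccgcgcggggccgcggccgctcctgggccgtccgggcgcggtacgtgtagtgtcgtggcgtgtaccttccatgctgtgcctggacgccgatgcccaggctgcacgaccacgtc
The windows of the clock genes Arntl, Dbp, Nr1d1 and Nr1d2 held no E-box, and those of Ern1 and Sel1l held no ER stress element. No gene with a window held the sterol regulatory element letters TCACNCCAC, which 1.24% of windows held. A match is a description of letters and not a test of binding.

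Cholesterol genes leaned upward in liver and downward in brain. Cells make and import more cholesterol when the transcription factor SREBP-2 is active, and INSIG1 holds SREBP in the ER. Of 25 genes, 24 had a liver minus brain change above 0, with a median change of 0.26 in liver and -0.173 in brain. Between the tissues 5 differed upward, among them Mvd, Fdps and Insig1, against 1.68% of all genes, and by DESeq2 8 did. Insig1 (chr5:28071363-28078662, plus strand) had 7866, 12028 and 9443 normalized reads in liver at 2.25 ppm, against 6709, 5905 and 5555 at 0.1 ppm, and in brain 688, 660.1 and 645 at 2.25 ppm and 844, 1013 and 898 at 0.1 ppm. Liver was higher and brain lower, each without overlap. It rose in liver by 0.67 (adjusted p = 0.0178), its brain change was -0.46 (adjusted p = 0.0556), and the difference was 1.14 ± 0.18 (SE; adjusted p = 0.00351). The liver call of Insig1 was lost without liver 2.25 ppm c or liver 0.1 ppm b or c (adjusted p 0.0533 to 0.0883). Mvd and Fdps, enzymes of the mevalonate pathway, differed by 1.52 ± 0.33 (SE; adjusted p = 0.027) and 1.45 ± 0.35 (SE; adjusted p = 0.0446). These calls were lost without liver 2.25 ppm b, liver 0.1 ppm b, brain 2.25 ppm a or b, or brain 0.1 ppm a or c (adjusted p 0.0537 to 0.0688) for Mvd and without liver 2.25 ppm b or c, liver 0.1 ppm b or c, brain 2.25 ppm a, b or c, or brain 0.1 ppm a or b (adjusted p 0.0623 to 0.116) for Fdps. Leaving out liver 2.25 ppm a gave 12 cholesterol genes above 0 in place of 5. The count was 2 without liver 2.25 ppm b, liver 0.1 ppm b, brain 2.25 ppm a or brain 0.1 ppm a, and 3 without liver 2.25 ppm c, liver 0.1 ppm c, brain 2.25 ppm b or c, or brain 0.1 ppm b or c.

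Transporters of amino acids and metals differed in both directions. The calls of Slc7a2, Slc38a2, Slc30a10, Tfrc and Hfe each held without any 1 of the 12 libraries. Slc7a2, a cationic amino acid transporter of hepatocytes (chr8:40862396-40922308, plus strand), had 5989, 4939 and 4429 normalized reads in liver at 2.25 ppm, against 19546, 17417 and 19983 at 0.1 ppm. Brain held 569.7, 489 and 528 at 2.25 ppm and 496, 523 and 497 at 0.1 ppm, with overlap, and the difference was -1.96 ± 0.14 (SE; adjusted p = 1.88e-05). Slc38a2, a neutral amino acid transporter, fell in liver, -1.15 (adjusted p = 0.0272), a call lost without liver 2.25 ppm a or c or liver 0.1 ppm a or b (adjusted p 0.0543 to 0.117), and leaned upward in brain, 0.48 (adjusted p = 0.058), with a difference of -1.63 ± 0.33 (SE; adjusted p = 0.0153). Slc30a10, which exports manganese (chr1:185454848-185468762, plus strand), had 1237, 919 and 951 normalized reads in liver at 2.25 ppm, against 263, 276 and 232 at 0.1 ppm, and its difference was 1.90 ± 0.18 (SE; adjusted p = 0.00012). The brain groups of Slc30a10 overlapped.

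Tfrc, the transferrin receptor (chr16:32608920-32632794, plus strand), had 1222, 1623 and 1437 normalized reads in liver at 2.25 ppm, against 678, 701 and 723 at 0.1 ppm. In brain it leaned the other way, 1359.9, 1450 and 1273 at 2.25 ppm and 1807, 1804 and 1603 at 0.1 ppm, -0.35 (adjusted p = 0.0931). The difference was 1.37 ± 0.13 (SE; adjusted p = 0.00012). Hfe, a regulator of iron sensing, differed by 0.72 ± 0.14 (SE; adjusted p = 0.0117), and neither tissue's own change passed. Slc11a2, an iron importer, differed by 0.77 ± 0.16 (SE; adjusted p = 0.019), lost without liver 0.1 ppm b, brain 2.25 ppm c, or brain 0.1 ppm a (adjusted p 0.0518 to 0.0592). In all, 4 of 18 genes of metal and iron handling differed upward and 1 downward, against 1.68% and 1.58% of all genes. The downward gene, the metal importer Slc39a14, lost its call without liver 2.25 ppm c, liver 0.1 ppm b, brain 2.25 ppm a, b or c, or brain 0.1 ppm a or c (adjusted p 0.0576 to 0.0853) and did not pass by edgeR.

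Tubulins and surface proteins were among the largest upward differences. Tubb2a, a beta tubulin (chr13:34074274-34078007, minus strand), had 1906, 1575 and 2126 normalized reads in liver at 2.25 ppm, against 344, 308 and 425 at 0.1 ppm, and in brain, where the gene is neuronal, 3821, 3614 and 3367 at 2.25 ppm and 3427, 3815 and 3086 at 0.1 ppm. Its difference was 2.31 ± 0.18 (SE; adjusted p = 2.05e-05). Tuba1c rose in liver by 1.66 (adjusted p = 3.71e-05) and leaned downward in brain, -0.77 (adjusted p = 0.187), on brain values of 13.7 to 35.7. Its difference was 2.43 ± 0.23 (SE; adjusted p = 0.00012). Tuba4a, Tubb4b and Tubb5 differed by 0.96, 0.75 and 0.73. This made 5 of 17 tubulins upward, against 1.68% of all genes, in a family looked at after its values were seen. The calls were lost without liver 0.1 ppm a or c, brain 2.25 ppm b or c, or brain 0.1 ppm a or b (adjusted p 0.0506 to 0.0771) for Tubb4b and without liver 0.1 ppm a, b or c, brain 2.25 ppm a, b or c, or brain 0.1 ppm a, b or c (adjusted p 0.0553 to 0.118) for Tubb5. Tubulin genes are near-identical, so the split of reads between them is uncertain. Celsr1, a cadherin of planar cell polarity (chr15:85898929-86033777, minus strand), had 924, 993 and 1001 normalized reads in liver at 2.25 ppm, against 208, 233 and 202 at 0.1 ppm, and differed by 2.34 ± 0.17 (SE; adjusted p = 1.88e-05). Cldn1, a tight junction claudin, differed by 2.02 ± 0.32 (SE; adjusted p = 0.00415), with 1280, 1139 and 1209 normalized reads in liver at 2.25 ppm, against 622, 493 and 409 at 0.1 ppm. The brain change of Cldn1 lay below 0 and made up a part of this difference. Klhdc8a and Clic3 differed by 2.02 ± 0.26 (SE; adjusted p = 0.000956) and 2.61 ± 0.46 (SE; adjusted p = 0.00737), and Atp2b2, a plasma membrane calcium pump, by 2.21 ± 0.46 (SE; adjusted p = 0.02), lost without brain 0.1 ppm a or c (adjusted p 0.0532 to 0.0533).

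On the downward side, Rgs16, an inhibitor of G protein signalling, had 522, 254 and 144 normalized reads in liver at 2.25 ppm, against 3311, 1792 and 1496 at 0.1 ppm, and its difference was -3.02 ± 0.52 (SE; adjusted p = 0.00671). Fbf1, a protein of the cilium base (chr11:116142285-116168166, minus strand), had 156, 154 and 150.0 normalized reads in liver at 2.25 ppm, against 729.9, 1002 and 631 at 0.1 ppm, without overlap, and differed by -2.35 ± 0.18 (SE; adjusted p = 2.01e-05). Srrm4, a splicing factor of neurons, differed by -2.05 ± 0.38 (SE; adjusted p = 0.00971). Of 35 interferon response genes 8 fell in liver and none rose by limma, against 3.44% and 4.08% of all genes, and 2 rose by DESeq2. Between the tissues 1.58% of all genes differed downward, and of these 35 Usp18 and Ifit3 did, by -1.45 ± 0.30 (SE; adjusted p = 0.0187) and -0.80 ± 0.19 (SE; adjusted p = 0.0343). These calls were lost without liver 0.1 ppm b (adjusted p 0.0607) for Usp18 and without liver 2.25 ppm a or b, liver 0.1 ppm a or b, brain 2.25 ppm b or c, or brain 0.1 ppm a or c (adjusted p 0.0509 to 0.0915) for Ifit3, whose reads may be shared with a near-identical copy. The liver count of 8 was 2 without liver 2.25 ppm a or liver 0.1 ppm b, 3 without liver 0.1 ppm a, 4 without liver 2.25 ppm b and 5 without liver 0.1 ppm c. The interferon count below 0 was 0 without liver 0.1 ppm b, 3 without liver 0.1 ppm c, 5 without liver 2.25 ppm c and 1 without liver 2.25 ppm a or b, liver 0.1 ppm a, brain 2.25 ppm b, or brain 0.1 ppm a or c.

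**Figure D4:**
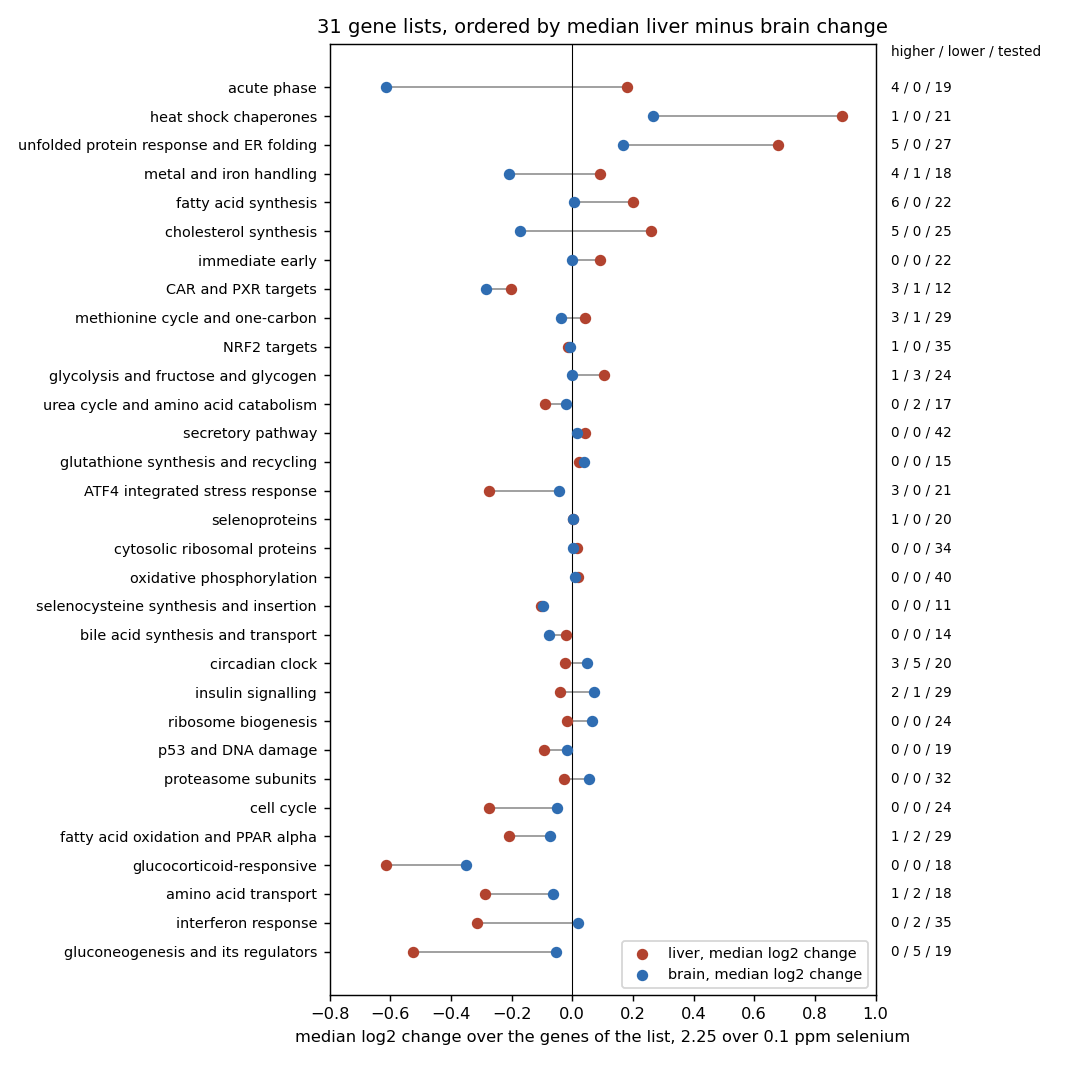
Median log2 change of 2.25 over 0.1 ppm in liver (red) and brain (blue) for 31 gene lists, ordered by the median liver minus brain change, with the numbers of genes that differed upward, downward and were tested at the right. The 2 chaperone lists lie right of 0 in both tissues, the cholesterol list lies on opposite sides, and the acute phase list is set apart by brain, at -0.615, and not by liver, though genes scarce in brain could enter it through the 0.1 ppm brain libraries alone.

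Brain had few changes of its own. Of its 13 genes, Banp, Clec2d, Gpr17, P4ha1 and Trib2 were higher at 2.25 ppm, and Nes, Nfkbia, Slc2a1, Txnip, Ucp2 and Zc3h6 were lower, with 2 unnamed loci also lower. Clec2d, a C-type lectin (chr6:129180615-129186534, plus strand), was the gene that passed between the tissues and in brain but not in liver. It had 2136, 1955 and 2422 normalized reads in liver at 2.25 ppm, against 1544, 2331 and 2253 at 0.1 ppm, which overlapped. In brain it had 52.1, 53.6 and 61.8 at 2.25 ppm and 17.2, 15.2 and 21.8 at 0.1 ppm, without overlap. Its liver value was 0.11 (adjusted p = 0.741), brain rose by 1.59 (adjusted p = 0.0349), and the difference was -1.48 ± 0.23 (SE; adjusted p = 0.00384). The brain count of 13 was 0 without brain 2.25 ppm a or c, 2 without brain 2.25 ppm b or brain 0.1 ppm b, 5 without brain 0.1 ppm a and 7 without brain 0.1 ppm c. It was 9 by edgeR and 207 by DESeq2. The brain call of Clec2d was lost without brain 2.25 ppm a, b or c or brain 0.1 ppm a or b (adjusted p 0.0597 to 0.11).

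P4ha1 and Nfkbia were the named genes that passed in both tissues, in the same direction. P4ha1, a collagen prolyl hydroxylase, had 466, 683 and 987 normalized reads in liver at 2.25 ppm, against 229, 282 and 460.5 at 0.1 ppm, and in brain 633, 604 and 797 at 2.25 ppm and 352, 401 and 409.6 at 0.1 ppm. It rose in liver by 1.13 (adjusted p = 0.0416) and in brain by 0.80 (adjusted p = 0.0407). The call was lost in liver without liver 2.25 ppm b or c or liver 0.1 ppm a or b (adjusted p 0.115 to 0.16), and in brain without any 1 of its 6 libraries (adjusted p 0.0597 to 0.148). Nfkbia, an inhibitor of NF-kappa B that glucocorticoids induce, had 533, 823 and 554 normalized reads in liver at 2.25 ppm, against 962, 937 and 918 at 0.1 ppm, and in brain 208, 255 and 208 at 2.25 ppm and 386, 409.7 and 389 at 0.1 ppm. Its change was -0.59 (adjusted p = 0.0395) in liver and -0.82 (adjusted p = 0.0275) in brain, lower at 2.25 ppm in both. The call was lost in liver without liver 2.25 ppm a or c or liver 0.1 ppm a, b or c (adjusted p 0.0975 to 0.135) and in brain without brain 2.25 ppm a or c or brain 0.1 ppm a, b or c (adjusted p 0.0597 to 0.11). Their liver minus brain changes, 0.33 ± 0.36 (SE; adjusted p = 0.721) and 0.23 ± 0.19 (SE; adjusted p = 0.608), did not pass. Nfkbia belongs to a list of 18 glucocorticoid-responsive genes of which 9 fell in liver and 1 in brain. Over all genes 3.44% fell in liver and 0.0771% passed in brain in either direction. None of the 18 differed between the tissues by limma with 5 at an unadjusted p under 0.05, and the median change was -0.614 in liver and -0.35 in brain. By the quasi-likelihood test of edgeR and by DESeq2 none of the 18 differed between the tissues either, but 2 did by limma without liver 2.25 ppm b and 1 without liver 0.1 ppm a. In brain 10 had an unadjusted p under 0.05 and 4 were lower by DESeq2. The brain count of 1 was 0 without brain 2.25 ppm a or c or any brain library at 0.1 ppm. The liver count of 9 was 3 without liver 2.25 ppm c or liver 0.1 ppm b, 4 without liver 2.25 ppm a or liver 0.1 ppm a and 5 without liver 0.1 ppm c.

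Some upward differences were of liver-rich transcripts whose few brain reads were fewer at 2.25 ppm. Transcripts at least 100 times more abundant in liver than in brain numbered 848, of which 313 were tested. A transcript so scarce in brain could enter through the 0.1 ppm brain libraries alone, so no count or median over the 313 is given. Summed, the 848 transcripts had 5969, 5897 and 5790 normalized reads in brain at 2.25 ppm, against 6938, 7158 and 6405 at 0.1 ppm, which is 0.0549% to 0.0687% of a brain library. All 3 libraries at 2.25 ppm were below all 3 at 0.1 ppm. Alb had 1493800, 1227400 and 1251700 normalized reads in liver at 2.25 ppm, against 1142000, 1380900 and 1450300 at 0.1 ppm, with overlap. In brain it had 1.45, 10.6 and 0 at 2.25 ppm and 43.9, 57.3 and 49.7 at 0.1 ppm. Its liver change of 0.00 (adjusted p = 0.997) and brain change of -4.07 (adjusted p = 0.058) gave a difference of 4.07 ± 0.82 (SE; adjusted p = 0.0163). The call of Alb was lost with a pseudocount of 0.1 (adjusted p = 0.108), with robust moderation (0.0743), without a mean-variance trend (0.0718) and with all 24 libraries in the fit (0.0682). In brain on the other diets Alb averaged 63.6 ± 7.11 at 0 ppm and 16.3 ± 27.0 at 0.4 ppm (SD, n = 3 each).

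Cyp3a11, a drug-metabolizing P450, had 0 in all 3 brain libraries at 2.25 ppm, against 4.81, 3.51 and 3.89 at 0.1 ppm (3 reads were worth 1.75 to 2.33 there). Its fitted difference of 2.29 ± 0.15 (SE; adjusted p = 1.88e-05) depends on the pseudocount and is no bound on the fold. Cyp3a11 passed the filter through the 0.1 ppm brain libraries alone, so its p-value lends no support to a difference. Mat1a, Bhmt, Cyp2c29, Cyp2c50, Itih4, Hpx, Fgb and Fgg were likewise lower in brain at 2.25 ppm in every library, with brain values of 14.4 normalized reads or fewer. Fabp1, a liver fatty acid binding protein, fell in liver, -0.50 (adjusted p = 0.0203), a call lost without liver 2.25 ppm a or b or liver 0.1 ppm b or c (adjusted p 0.0696 to 0.0975). Its difference of 1.60 ± 0.26 (SE; adjusted p = 0.00436) rested on 0, 0.705 and 0 at 2.25 ppm and 3.43, 5.26 and 3.89 at 0.1 ppm in brain. Genes so scarce in brain could enter through the 0.1 ppm brain libraries alone, as Fabp1 did, so the p-values of these 9 genes lend no support to a difference. Of these 9, Mat1a, Bhmt, Cyp2c29, Cyp2c50, Itih4, Hpx, Fgb and Fgg did not pass by edgeR, and Fabp1, Cyp2c29, Cyp2c50, Itih4, Hpx, Fgb and Fgg did not by DESeq2. Of 19 acute phase genes 4 differed upward by limma, against 1.68% of all genes, and none did by edgeR or DESeq2. The list median was 0.18 in liver and -0.615 in brain. The filter that admits a gene through the 0.1 ppm brain libraries alone applies to this list too. Its count was 1 without liver 2.25 ppm a, liver 0.1 ppm b or brain 0.1 ppm a, and 2 without liver 0.1 ppm c or brain 2.25 ppm b or c. The hepatocyte marker list, 11 genes, summed to 2527 to 6991 normalized reads in brain at 2.25 ppm and 5727 to 10800 at 0.1 ppm, mostly through Ttr, which choroid plexus also makes; the part of liver RNA in these results was not tested. Cyp and serpin genes have near-identical copies and their counts are uncertain. When all transcripts 100 times richer in either tissue were set aside, 516 genes differed.

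**Figure D5:**
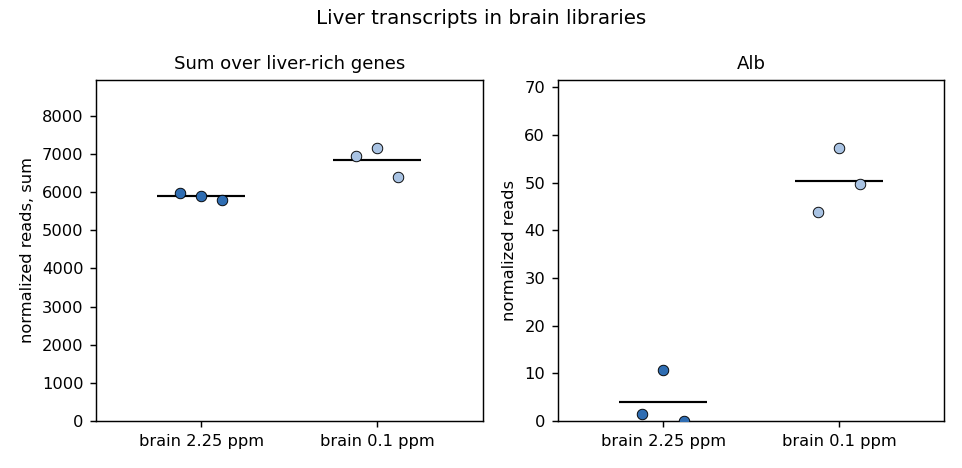
Normalized reads in each brain library summed over the 848 liver-rich transcripts (left) and for Alb (right), with points for libraries and a bar for the mean of 3. The 2.25 ppm libraries lie between 5790 and 5969 in the sum and at or below 10.6 for Alb, under the 0.1 ppm libraries in both.

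Of 20 selenoprotein genes tested, 1 differed between the tissues, against 3.26% of all genes. It was Selenoi, which also rose in liver. Selenoo, a mitochondrial selenoprotein, fell in liver, -0.54 (adjusted p = 0.00492), and its difference of -0.41 did not pass (adjusted p = 0.203). In liver 5 had an unadjusted p under 0.05. In brain none passed by limma, edgeR or DESeq2, and 3 had an unadjusted p under 0.05. The list's median liver minus brain change was -0.00534, near the 0.00654 of all genes. Selenoi, which makes phosphatidylethanolamine, had 1584, 1520.4 and 1506 normalized reads in liver at 2.25 ppm, against 1160.5, 1056 and 1078 at 0.1 ppm. Its brain values were 894, 997 and 946 at 2.25 ppm and 882, 866 and 891 at 0.1 ppm, and the difference of 0.38 ± 0.09 (SE; adjusted p = 0.0304) was lost without liver 2.25 ppm a, liver 0.1 ppm b, brain 2.25 ppm a or c, or brain 0.1 ppm a or c (adjusted p 0.061 to 0.0788). Gpx1 had 28166, 28633 and 28347 normalized reads in liver at 2.25 ppm, against 26811, 25798 and 28308 at 0.1 ppm, and in brain 485, 455 and 459 at 2.25 ppm and 447, 487 and 443 at 0.1 ppm, with overlap in both. The differences of Gpx1, Selenow, Selenop, Gpx4 and Txnrd1 were 0.05 ± 0.08 (SE; adjusted p = 0.81), 0.02 ± 0.10 (SE; adjusted p = 0.951), -0.08 ± 0.13 (SE; adjusted p = 0.827), 0.03 ± 0.08 (SE; adjusted p = 0.919) and -0.05 ± 0.08 (SE; adjusted p = 0.811). Oxidative phosphorylation, cytosolic ribosomal proteins, proteasome subunits, ribosome biogenesis, selenocysteine insertion, glutathione, bile acid, secretory pathway, p53, cell cycle and immediate early genes had no gene that passed between the tissues by limma or edgeR. Their members with an unadjusted p under 0.05 numbered 0 to 6 a list, by DESeq2 2 secretory, 2 cell cycle and 1 immediate early gene passed, and their medians lay between -0.108 and 0.183.

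NRF2 is the transcription factor that switches on antioxidant and detoxifying enzymes. Of 35 targets tested, 3 rose in liver, Gclc, Gstp1 and Osgin1, and none fell by limma, edgeR or DESeq2, while 16 lay under 0.05 before adjustment. The count of 3 (against 7.52% of all genes called in liver) was 1 without liver 2.25 ppm a or b or liver 0.1 ppm b or c, and 2 without liver 2.25 ppm c or liver 0.1 ppm a, and 1 gene fell without liver 0.1 ppm a. None passed in brain by limma, edgeR or DESeq2, with 7 at an unadjusted p under 0.05. Between the tissues Osgin1, an oxidative stress gene, differed by 2.60 ± 0.59 (SE; adjusted p = 0.0314), lost without liver 2.25 ppm a or c, liver 0.1 ppm a or b, brain 2.25 ppm c, or brain 0.1 ppm a or b (adjusted p 0.0529 to 0.0802). It had 5761, 3733 and 5817 normalized reads in liver at 2.25 ppm, against 1397, 1174 and 1638 at 0.1 ppm, and in brain 2.2, 11.3 and 5.03 at 2.25 ppm and 15.8, 9.35 and 5.44 at 0.1 ppm. The liver groups were apart and the brain groups overlapped. The list's median liver minus brain change was 0.0615, against 0.00654 over all genes tested.

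Glycogen and insulin signalling genes gave scattered differences. Of 24 genes of glycolysis, fructose and glycogen, 1 differed upward and 3 downward, against 1.68% and 1.58% of all genes. Ppp1r3g and Pfkfb3, described above, were among those downward. Ugp2, which makes UDP-glucose, and Pygl, liver glycogen phosphorylase, differed by -0.60 ± 0.13 (SE; adjusted p = 0.0215) and 0.55 ± 0.12 (SE; adjusted p = 0.0304). The calls were lost without brain 2.25 ppm a or c or brain 0.1 ppm a or c (adjusted p 0.0502 to 0.0595) for Ugp2 and without liver 2.25 ppm a or c, liver 0.1 ppm a or c, brain 2.25 ppm c, or brain 0.1 ppm b or c (adjusted p 0.0582 to 0.0676) for Pygl. Of 29 insulin signalling genes, 2 differed upward and 1 downward, against 1.68% and 1.58% of all genes, the downward gene being Foxo1. Gsk3b, a kinase that inhibits glycogen synthase, and Pik3r1, the regulatory subunit of PI3 kinase, differed by 0.44 ± 0.10 (SE; adjusted p = 0.0279) and 0.38 ± 0.10 (SE; adjusted p = 0.0496). The calls were lost without liver 2.25 ppm a, liver 0.1 ppm b, brain 2.25 ppm a, b or c, or brain 0.1 ppm a or b (adjusted p 0.051 to 0.0671) for Gsk3b and without liver 2.25 ppm a, b or c, liver 0.1 ppm a or b, brain 2.25 ppm a, b or c, or brain 0.1 ppm b or c (adjusted p 0.0628 to 0.116) for Pik3r1. Pygl and Pik3r1 did not pass by edgeR.

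Of 25 named genes that fell in liver and differed between the tissues, 22 had their highest liver mean of the 4 diets at 0.1 ppm, with Fads3, Nr1d1 and Ifit3 the exceptions. Of 32 that rose, 26 had their lowest at 0.1 ppm, with Srebf1, Insig1, Mvd, Gsk3b, Pik3r1 and Tfrc the exceptions. The genes were chosen for a difference between 2.25 and 0.1 ppm, which favours 0.1 ppm as the extreme. These means share their 0.1 and 2.25 ppm libraries with the results above and are given as values only. At 0, 0.1, 0.4 and 2.25 ppm, liver Mfsd2a averaged 717 ± 93.7, 3101 ± 246, 923 ± 80.9 and 605 ± 143 normalized reads (SD, n = 3 each). Liver Ppargc1a averaged 167 ± 42.0, 565 ± 87.2, 136 ± 18.1 and 151 ± 24 in the same order, liver Gpcpd1 3242 ± 812, 12484 ± 1160.5, 4919.9 ± 1576 and 1628 ± 781, and liver Fbf1 214 ± 86.9, 788 ± 192, 141 ± 12.5 and 154 ± 3.27. In each of these the 0.1 ppm mean was the highest, and the 0 and 0.4 ppm means were nearer to 2.25 ppm, as in 12 of the 25. Others differed: liver Sds averaged 2182 ± 228, 5934 ± 459.7, 4213 ± 472 and 2167 ± 643 and liver Nr1d1 1492 ± 602, 650.1 ± 199, 529.6 ± 184 and 151 ± 12.4. Among upward genes, liver Fasn averaged 7861 ± 818, 4885 ± 652, 10459 ± 2209 and 27778 ± 6627 and liver Mid1ip1 432 ± 101, 304 ± 11.6, 1143 ± 239 and 2057 ± 478, with 0.1 ppm the lowest, 0 ppm next and 2.25 ppm the highest. Liver Arntl averaged 119 ± 76.2, 39.8 ± 6.73, 136 ± 64.6 and 344 ± 89.1 and liver Ern1 2171 ± 210.4, 1371 ± 62.9, 2045 ± 322 and 2536 ± 346, again with 0.1 ppm the lowest, whereas liver Srebf1 averaged 2778 ± 1128, 3518 ± 548, 6728 ± 1352 and 10455 ± 1687, with 0 ppm the lowest. In brain Fasn averaged 3077 ± 154, 3094 ± 75.8, 3233 ± 55.2 and 3204 ± 208 and Mfsd2a 246 ± 24.4, 375 ± 43.1, 442 ± 38.9 and 369 ± 52.0 over the same diets.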

How the data were processed

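RNA was isolated with TRIzol and made into TruSeq Stranded Total RNA libraries, per the labels' protocols. Per the submitters' processing notes, the tools were bcl2fastq 2.17, Trimmomatic 0.33, STAR 2.5.2b, RSEM 1.3.0 and limma 3.34.5, with mm10. The authors deposited 1 table of normalized read signal for 21894 genes in 24 libraries. Each value was a whole read number times a factor per library: all 525456 values (100%) came out whole within 0.01. Brain and liver factors differ, so changes were taken within a tissue. Levels were set across tissues for the tissue markers and for transcripts 100 times richer in 1 tissue, and those ratios carry the difference in factors.

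Values were tested as log2(value + 1) with limma 3.58.1 (trend, R 4.3.3) and Benjamini-Hochberg adjustment over 16857 genes. The liver minus brain change came from 1 fit of 12 libraries in 4 groups, and changes within a tissue from its 6 libraries. Fold changes of low genes are understated on this scale. Recovered reads were tested with edgeR 4.0.16 and DESeq2 1.42.0. Other filters, scalings, moderation, samples in the fit and leaving out each library were tried, and the code was tested on simulated data. The letters a, b and c follow column order and pair nothing. No replicate pair agreed within sampling noise.

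Genes were named by rule: up to 12 per direction with the largest difference, a mean of at least 20 in each tissue and library differences that did not overlap; up to 8 called in both tissues, in opposite or in the same direction; up to 8 called between the tissues and in brain but not in liver; up to 4 called members of each of 31 pathway lists; and Gpx1, Selenow, Selenop, Gpx4 and Txnrd1. Other list members named, such as Hspa5, Acaca and Igfbp1, were chosen after their values were seen. Members and lists were chosen with earlier results of these data known. Results on some genes that met these rules are not reported here.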

Additional observations from a re-analysis of the deposited data

Results flagged for a closer look

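The count of 549 genes is singled out because liver and brain changes on the same diets differed by a direct test of the difference. Each of the 71 genes below is listed on the same test, with its liver minus brain log2 change. Both counts include Cyp3a11 and Fabp1, which passed the filter through the brain libraries of a single diet. Other genes scarce in brain could have done so too. For such genes the test lends no support to a difference. Above 0, leading genes were Alb at 4.07, Arntl at 2.86, Mid1ip1 at 2.70, Clic3 at 2.61, Osgin1 at 2.60 and Fasn at 2.44. After them came Tuba1c at 2.43, Celsr1 at 2.34, Tubb2a at 2.31, Chka at 2.28, Atp2b2 at 2.21, Klhdc8a at 2.02 and Cldn1 at 2.02. Below 0 they were Ppp1r3g at -4.14, Rgs16 at -3.02, Gpcpd1 at -2.81, Dbp at -2.57, Fbf1 at -2.35, Mfsd2a at -2.35, Pfkfb3 at -2.22, Sds at -2.10, Fads3 at -2.05, Srrm4 at -2.05 and Ciart at -2.04.

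Among genes of fatty acid, sterol and phospholipid synthesis, of folding and of the integrated stress response, those that differed upward were Srebf1 by 1.59, Acly by 0.80, Insig1 by 1.14, Mvd by 1.52, Fdps by 1.45, Selenoi by 0.38, Ern1 by 0.88, Syvn1 by 1.59, Hyou1 by 1.21, Sel1l by 0.81, Atf5 by 0.66, Atf4 by 0.52, Ddit3 by 1.11 and Hsp90aa1 by 1.33. Among genes of fasting metabolism, the clock and the interferon response, those that differed downward were Cpt1a at -0.67, Bdh1 -0.40, Ppargc1a -1.84, Foxo1 -0.91, Got1 -1.38, Ugp2 -0.60, Nr1d1 -1.76, Nr1d2 -0.86, Usp18 -1.45 and Ifit3 -0.80. Pygl, Gsk3b and Pik3r1 differed by 0.55, 0.44 and 0.38, and Clec2d by -1.48.

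Genes rich in liver whose brain values were at or near 0 at 2.25 ppm were Cyp3a11 at 2.29, Fabp1 at 1.60, Itih4 at 1.42, Fgb at 1.33, Fgg at 1.36, Hpx at 1.44, Mat1a at 1.52, Bhmt at 1.84, Cyp2c50 at 1.33 and Cyp2c29 at 1.35. Cyp3a11 and Fabp1 passed the filter through the 0.1 ppm brain libraries alone, and others of this group could have done so too. The p-values of this group therefore lend no support to a difference. With few brain reads these fitted values depend on the pseudocount. Losing 1 library ended the calls of Fgb without liver 2.25 ppm a, liver 0.1 ppm b, or brain 0.1 ppm a or c (adjusted p 0.0534 to 0.067), Fgg without liver 2.25 ppm a or c, liver 0.1 ppm b or c, brain 2.25 ppm b or c, or brain 0.1 ppm a or b (adjusted p 0.0572 to 0.0916) and Hpx without liver 2.25 ppm a or b, liver 0.1 ppm b or c, brain 2.25 ppm a, b or c, or brain 0.1 ppm a (adjusted p 0.0609 to 0.0902). It also ended those of Mat1a without liver 2.25 ppm a or b, liver 0.1 ppm a or b, brain 2.25 ppm b, or brain 0.1 ppm c (adjusted p 0.0538 to 0.0688) and Bhmt without liver 2.25 ppm a or b, liver 0.1 ppm a or b, or brain 2.25 ppm a or c (adjusted p 0.0681 to 0.0821).

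Transport and one-carbon genes were Slc7a2 at -1.96, Slc38a2 at -1.63, Slc6a6, a taurine transporter, at 0.50, Tfrc at 1.37, Slc30a10 at 1.90, Hfe at 0.72, Slc11a2 at 0.77, Chdh, choline dehydrogenase, at -0.87 and Abcb1a, a drug efflux pump, at -1.02. The calls were lost without liver 2.25 ppm a, liver 0.1 ppm b, brain 2.25 ppm a, b or c, or brain 0.1 ppm a, b or c (adjusted p 0.0534 to 0.0811) for Slc6a6, without liver 2.25 ppm a, liver 0.1 ppm a or b, or brain 0.1 ppm b or c (adjusted p 0.0504 to 0.0622) for Chdh and without liver 2.25 ppm b or c, liver 0.1 ppm b or c, brain 2.25 ppm a, b or c, or brain 0.1 ppm a, b or c (adjusted p 0.0658 to 0.116) for Abcb1a. Across the 71 genes, 40 kept their call in all 12 fits without 1 library and 31 lost it in at least 1 of them.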

How the results depend on the processing

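None of the 71 called genes named changed the sign of their liver minus brain change in any alternative. Of them, 38 lost the call in at least 1 of 13 alternatives other than leaving out a library. The count of 549 became 340 without a mean-variance trend, 1012 at a threshold of 0.1, 868 by DESeq2 (495 shared) and, in an alternative chosen after seeing the data, 181 without brain 0.1 ppm b and c. It was 311 to 656 without 1 library and 460 to 630 in the others. The liver count of 1268 became 334 without a filter, 244 without a trend, 2064 at 0.1 and 2259 with both tissues in the fit, and 448 to 927 without 1 library. With quantile normalization within each tissue it was 963, with 475 higher and 488 lower, against 688 and 580. The brain count of 13 became 2 without a filter, 63 and 78 with filters at 4 and 20, 4 (1 higher, 3 lower) with quantile normalization, 8 (2 higher, 6 lower) with median-of-ratios factors, 91 with robust moderation, 8 without a trend, 172 at 0.1, 207 by DESeq2, 142 with 4 diets, 59 (12 higher, 47 lower) with both tissues in the fit and 0 to 7 without 1 library, against 5 higher and 8 lower. A filter changes by construction how many genes are tested; for the other shifts the cause was not tested. No paired analysis was possible because the columns carry no replicate number. Each group had 3 libraries, and genes near 3 reads in 1 tissue rest on few reads.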
